A study of Mus musculus with 4 samples.

Results

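Macrophages of the neonatal mouse sciatic nerve were described from 2 Drop-seq libraries of wild-type CD1 pups, a droplet method that counts unique molecular identifiers (UMIs) per gene and cell. A cell was selected when it had at least 200 genes, at most 10% mitochondrial UMIs, at least 4 UMIs summed over C1qa, C1qb, Csf1r, Tyrobp, Fcer1g, Aif1 and Ly86, and no UMI of Pdgfra, Pecam1 or Sox10, which mark mesenchymal, endothelial and Schwann cells. The rule found 94 cells among the 8042 neonatal cells that passed the gene and mitochondrial filters, in a series of 13200 barcodes. Of these, 75 of 2306 came from the library of nerves at postnatal day 3 to 4 sorted by fluorescence-activated cell sorting (FACS), and 19 of 5736 from the library of nerves at postnatal day 2 to 3 cleared with myelin removal beads. The same rule found 270 of 2281 cells in the comparison library, the distal sciatic nerve segment of adult CD1 mice 3 days post-injury (3 DPI) by unilateral resection, and 14 of 1945 in uninjured adult CD1 nerve. Both adult libraries were prepared with the beads. No library carried a transgene or a drug treatment in the labels, and the number of animals in each was not given. The paper states that animals with resected nerves received ketoprofen or meloxicam, and buprenorphine, before surgery. Ketoprofen or meloxicam was given again after it. Among these libraries this concerns 3 DPI only.

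Each group is 1 library, so no test between groups was possible. The neonatal FACS and 3 DPI libraries differ in age, injury, the drugs given with surgery, preparation and library at once. These cannot be told apart in any comparison below. Levels are given as UMIs of a gene summed over the selected cells per 1000000 of their UMIs (CPM), with exact Poisson 95% intervals in parentheses, and shares of cells with exact Clopper-Pearson 95% intervals. Both cover counting error only. A gene was counted as higher or lower when its CPM differed at least 2-fold, a rule of size.

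Macrophages are the phagocytes of the nerve. Resident macrophages settle in the nerve before and around birth and sit in the endoneurium beside axons or in the outer layers near vessels and lymphatics, where they carry scavenger receptors such as MRC1, STAB1 and CD163 and depend on the CSF1 receptor. After injury, monocytes that carry CCR2 enter the distal nerve in numbers, become macrophages and clear myelin debris. C1q, made by most tissue macrophages, opens the classical complement pathway. MHC class II molecules present antigen to T cells and are typical of dendritic cells and of many adult macrophages.

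The selected cells were 3.25% (2.57 to 4.06) of filtered cells in the neonatal FACS library, 0.331% (0.1995 to 0.517) in the neonatal bead library, 11.8% (10.5 to 13.2) at 3 DPI and 0.7198% (0.394 to 1.205) in the uninjured nerve. The sort, which kept nucleated cells that excluded propidium iodide, and the bead column can both set such shares. Selected cells had a median of 2173 UMIs in the FACS library, 1423 in the neonatal bead library, 1216 at 3 DPI and 1561 in the uninjured nerve, and their UMIs summed to 177925, 27456, 406177 and 25542. A count of 0 therefore allows up to 16.9 CPM in the FACS cells, 109 CPM in the neonatal bead cells and 7.39 CPM at 3 DPI. The 4 libraries shared 8 barcode sequences over all pairs, none of them among selected cells.

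The cells were chosen by the UMI counts of the 7 genes of the rule, so the levels of these genes are a description and support nothing. In the FACS cells, C1qa had 3187 (2929.8 to 3460.2) CPM, against 765 (473 to 1169) in the neonatal bead cells and 638 (562 to 720.2) at 3 DPI. Csf1r, the receptor for the macrophage growth factors CSF1 and IL-34, had 1506 (1331 to 1698), 255 (103 to 525) and 401 (342 to 468) CPM. Tyrobp and Fcer1g, signalling adaptors shared by macrophages, mast cells, neutrophils and natural killer cells, had UMIs in 68.4% and 84.2% of the neonatal bead cells, whereas C1qb had them in 26.3% and Ly86 in 5.26%. At the threshold, the FACS library had 2 selected cells with exactly 4 such UMIs, both with C1q UMIs, and no cell with 3. The 3 DPI library had 55 cells with exactly 4, of which 12 had C1q UMIs, and 67 with 3, of which 10 had them. The neonatal bead library had 1 cell with 4 and 4 cells with 3, none with C1q UMIs.

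Outside the rule, the C1q chain gene C1qc had UMIs in 72 of 75 FACS cells, 7 of 19 neonatal bead cells and 84 of 270 cells at 3 DPI, and 8 of the neonatal bead cells carried mast cell or neutrophil markers. As a description, since C1qa and C1qb belong to the rule, at least 1 UMI of C1qa, C1qb or C1qc was found in 73 of 75 FACS cells (97.3%, 90.7 to 99.7), in 7 of 19 neonatal bead cells (36.8%, 16.3 to 61.6), in 115 of 270 cells at 3 DPI (42.6%, 36.6 to 48.7) and in 1 of 14 uninjured cells. For comparison, C1qc had UMIs in 1.69% of the 236 Pdgfra-positive cells of the FACS library, at a median of 3203 UMIs, and in 3.26% of the 613 at 3 DPI, at a median of 4647. The neonatal bead cells comprised 5 cells with mast cell markers, each with 304 to 582 UMIs of Cpa3, Kit, Mcpt4, Fcer1a, Tpsb2 and Cma1, 3 cells with UMIs of the neutrophil genes S100a8 and S100a9, 3 cells with MHC class II UMIs and no C1q UMI, 7 cells with C1q UMIs and 1 cell with none of these. The 7 cells with C1q UMIs held only 4131 UMIs in all, with a median of 514. No FACS cell had 5 or more UMIs of the mast cell, neutrophil, or T and NK cell lists.

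**Figure D1:**
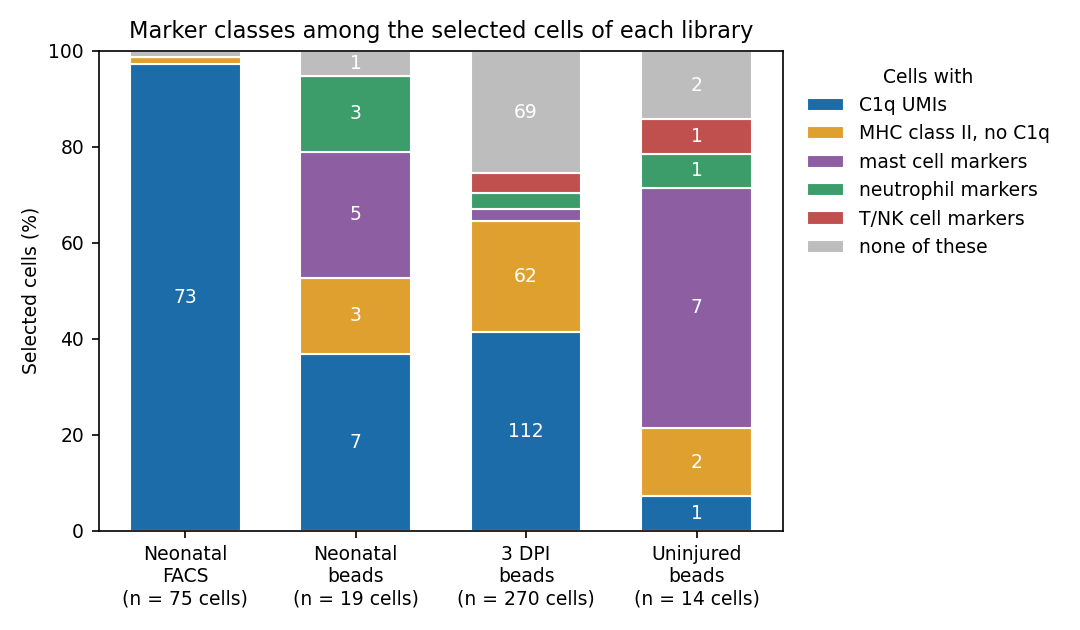
Share of selected cells (%, bars stack to 100) in each of the 4 libraries by the markers they hold, with the number of cells written in the larger segments. A cell with at least 5 UMIs of the mast cell list, of S100a8 and S100a9, or of the T and NK cell list is counted there first, then cells with a C1q UMI, then cells with at least 5 MHC class II UMIs. C1q cells fill 73 of 75 in the FACS library, 7 of 19 in the neonatal bead library and 112 of 270 at 3 DPI.

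At 3 DPI, 7 cells had at least 5 mast cell UMIs, 9 had at least 5 of S100a8 and S100a9 and 11 had at least 5 of the T and NK cell list. A further 62 had at least 5 MHC class II UMIs without C1q, and 69 had none of these markers. Because the rule gathers several myeloid cell types, each comparison was also made between the 73 FACS cells and the 115 cells at 3 DPI that had C1q UMIs, which held 172410 and 179816 UMIs. This comparison, and that of the FACS library alone, was added after the data were seen.

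Over the 3968 genes with at least 30 UMIs in the selected cells of the 3 libraries, 110 genes (2.77%) were at least 2-fold higher in each neonatal library than at 3 DPI and 209 (5.27%) at least 2-fold lower. Median-of-ratios scaling changed this split to 63 and 317. For the FACS cells alone, 406 genes (10.2%) were higher and 658 (16.6%) lower, or 317 and 816 with the median-of-ratios scaling, which moved the median log2 ratio of all genes from 0.01 to -0.18. Between cells with C1q UMIs, 294 (12.6%) of the 2336 genes with at least 30 UMIs were higher in the FACS cells and 313 (13.4%) lower. The last 2 pairs of percentages are the background for the counts of list members below. A share near the background is no result about a list. A gene that is low in 1 group can reach the minimum of 30 UMIs only through the other group, where it is high, so the counts are no support for a direction, and the summed levels cover all members of a list.

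The most abundant transcripts of the neonatal cells, counted by UMIs without regard to length, were Apoe, Tmsb4x, Actb, Fth1, Malat1, Sepp1, Cst3, Pf4, Ctsb and Lyz2. Apoe, a lipid carrier secreted by macrophages, reached 22442 (21751 to 23149) CPM in the FACS cells and 18265 (17852 to 18686) at 3 DPI. Sepp1, the selenium carrier selenoprotein P, had 6159.9 (5801 to 6536) CPM in the FACS cells, 364 (175 to 669.8) in the neonatal bead cells and 1947 (1814 to 2088) at 3 DPI. Pf4, a chemokine of platelets and of resident macrophages, had 5795 (5446 to 6159), 291 (126 to 574) and 1066 (968 to 1171) CPM. Lyz2, lysozyme, went the other way, with 4305 (4006 to 4621) CPM in the FACS cells, 4698 (3923 to 5583) in the neonatal bead cells and 14912 (14539 to 15293) at 3 DPI, and was 3.46-fold lower (3.21 to 3.74) in the FACS cells than at 3 DPI. Lyz1 is a near-identical copy, so reads may be split between both.

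The genes that mark resident and perivascular macrophages were far more abundant in the neonatal FACS cells than at 3 DPI. Of the 16 listed, 12 had at least 30 UMIs, 11 of these were at least 2-fold higher in the FACS cells, none was lower, and the median log2 ratio was 2.55 against 0.01 over all genes. Between cells with C1q UMIs, 10 of 12 were higher and the median was 2.36 against 0.06. The list summed to 11342 CPM (10852 to 11848) in the FACS cells, 1166 (797 to 1645) in the neonatal bead cells and 1947 (1814 to 2088) at 3 DPI. In the 7 neonatal bead cells with C1q UMIs it was 5084 (3147 to 7771), from 21 UMIs.

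Mrc1, the mannose receptor CD206, had UMIs in 70 of 75 FACS cells, 3 of 19 neonatal bead cells and 79 of 270 cells at 3 DPI, with 4002 (3713 to 4307), 401 (199.999 to 717) and 433 (372 to 502) CPM. With every cell thinned to 500 UMIs the shares were 80.6%, 12.5% and 17.5%. Mrc1 had UMIs in 1.27% of the Pdgfra-positive cells of the FACS library, which were deeper than the selected cells. Stab1, a scavenger receptor of resident macrophages and sinusoidal endothelium, had 1956 (1756 to 2173) CPM in the FACS cells and 231 (187 to 283) at 3 DPI. Lyve1, the hyaluronan receptor of lymphatic vessels and of macrophages near vessels, had UMIs in 29 FACS cells, 1 neonatal bead cell and 3 of 270 cells at 3 DPI. Its level was 1068 (921 to 1231) CPM in the FACS cells and 17.2 (6.93 to 35.5) at 3 DPI, 61.96-fold higher (29.5 to 156). Cd163, the receptor that takes up haptoglobin-bound hemoglobin, had 455 (362 to 566) CPM in the FACS cells, none in the neonatal bead cells and 32.01 (17.04 to 54.7) at 3 DPI.

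Fcna, ficolin A, a lectin of the complement system, had 320.4 (243 to 415) CPM in the FACS cells and 7.39 (1.52 to 21.6) at 3 DPI. Cd209f, a C-type lectin with close paralogs, had 45 UMIs in the FACS cells and 0 in both other libraries, which makes it at least 34.2-fold higher than at 3 DPI against a floor of 3 UMIs. F13a1, coagulation factor XIII A, Folr2, a folate receptor, and Ccl24, an eosinophil chemokine, were 3.17-fold higher (2.59 to 3.87), 4.05-fold higher (2.56 to 6.51) and 3.02-fold higher (2.16 to 4.23) in the FACS cells than at 3 DPI. Clec10a was the tested gene that did not reach 2-fold, with 320.4 (243 to 415) CPM in the FACS cells and 222 (178 to 272) at 3 DPI. Cd209d had no neonatal UMI and 20 at 3 DPI, under the minimum of 30. The absence of several of these genes from the neonatal bead cells can be read only against its floor of 109 CPM and the mixed makeup of those cells.

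**Figure D2:**
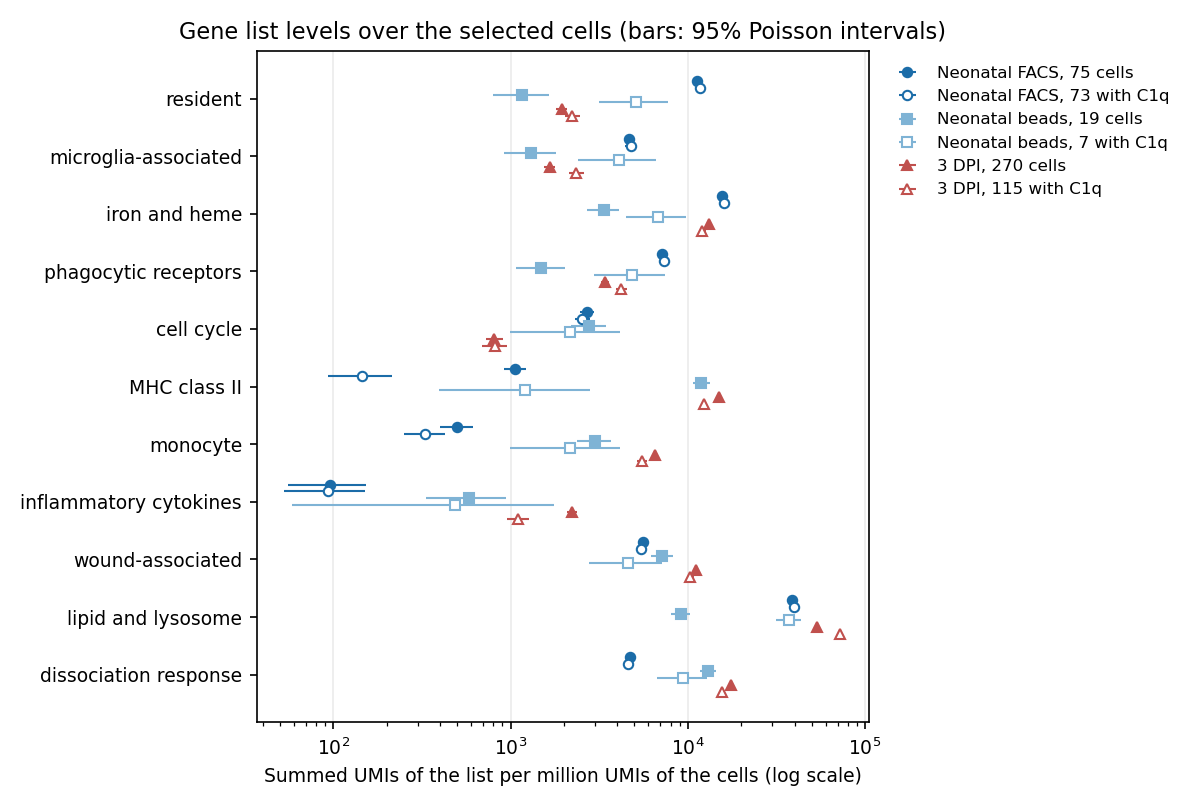
Summed UMIs of 11 gene lists per 1000000 UMIs of the cells (log axis) in the neonatal FACS, neonatal bead and 3 DPI libraries, with 95% Poisson intervals. Filled symbols are all selected cells and open symbols those with C1q UMIs. The neonatal FACS cells stand to the right for resident and microglia-associated genes and to the left for MHC class II, monocyte and inflammatory genes, and the open squares of the 7 neonatal bead cells with C1q lie nearer to the FACS cells than the filled squares for the resident, microglia-associated and MHC class II lists.

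Genes best known from microglia, the resident macrophages of the brain, were higher in part. Of 7 with at least 30 UMIs, 4 were at least 2-fold higher in the FACS cells, none was lower, and the median log2 ratio was 2.73; between cells with C1q UMIs, 4 of 6 were higher. Cx3cr1, the receptor for the neuronal chemokine fractalkine, had 1613 (1432 to 1811) CPM in the FACS cells, 401 (199.999 to 717) in the neonatal bead cells and 244 (198 to 297) at 3 DPI. Gpr34, a receptor for lysophosphatidylserine, had UMIs in 40 of 75 FACS cells and 4 of 270 at 3 DPI, with 337 (257 to 434) and 12.3 (3.997 to 28.7) CPM, and was 1 of the 2 genes of this list higher in both neonatal libraries, with 72.8 (8.82 to 263) CPM in the bead cells from 2 UMIs. Fcrls had 989 (848 to 1147) CPM in the FACS cells and 108 (78.7 to 145) at 3 DPI. P2ry12, the ADP receptor of microglia, had 197 (137 to 274) and 27.1 (13.5 to 48.5) CPM, the other gene of the list higher in both neonatal libraries. Trem2, a lipid-sensing receptor, was close to level, with 517 CPM in the FACS cells against 539 at 3 DPI. Tmem119 had 8 UMIs in the FACS cells and 9 at 3 DPI, too few for the 2-fold rule, and Sall1 had 0 and 0.

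MHC class II transcripts were nearly confined to 1 of the 75 FACS cells. All 27 H2-Aa UMIs, all 43 H2-Ab1 UMIs, all 12 H2-Eb1 UMIs and 73 of 90 Cd74 UMIs of the library's selected cells lay in that cell, which had no C1q UMI. The list summed to 1062 CPM (916 to 1225) in the FACS cells, 11946 (10688 to 13312) in the neonatal bead cells and 14976 (14602 to 15357) at 3 DPI. Without that cell the FACS level was 144 CPM. All 7 tested genes of the list were at least 2-fold lower in the FACS cells. At least 5 MHC class II UMIs were found in 1 of 75 FACS cells, 3 of 19 neonatal bead cells and 119 of 270 cells at 3 DPI (44.1%), of which 55 also had C1q UMIs. Between cells with C1q UMIs, the list had 25 UMIs in the FACS cells (145 CPM, 93.8 to 214) and 2223 at 3 DPI (12363 CPM, 11854 to 12888). H2-Aa was at 0 UMIs in these FACS cells, at least 157-fold lower than at 3 DPI. At 3 DPI, 11.7% of Pdgfra-positive cells had H2-Aa UMIs, below the 46.3% of the shallower selected cells.

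Genes of monocytes were low in the neonatal FACS cells. Of 10 tested, 9 were at least 2-fold lower than at 3 DPI and none higher, with a median log2 ratio of -3.15; between cells with C1q UMIs, 4 of 5 were lower. Ccr2, the receptor that brings monocytes out of the bone marrow, had UMIs in 6 of 75 FACS cells, 5 of 19 neonatal bead cells and 134 of 270 at 3 DPI, with 197 (137 to 274), 437 (226 to 763) and 1605 (1484 to 1733) CPM. Plac8 had 9 UMIs, all in 1 FACS cell, against 223 at 3 DPI. Ly6c2, the surface antigen of classical monocytes, had 3 UMIs in the FACS cells and 137 at 3 DPI. Both genes are also found in other cells, with 235 CPM of Plac8 in Pdgfra-positive and 204 CPM of Ly6c2 in Pecam1-positive cells at 3 DPI. Itga4, the alpha subunit of the integrin VLA-4, was level, with 157 (105 to 227) and 140.3 (106 to 182) CPM.

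Inflammatory cytokines were close to absent from the neonatal FACS cells, where the list had 17 UMIs in all. The 6 tested, which reached 30 UMIs through the 3 DPI cells, were each at least 2-fold lower, and the summed level of all 10 genes was 95.5 CPM (55.7 to 153) against 2213 (2071 to 2363) at 3 DPI and 583 (333 to 946) in the neonatal bead cells. Il1b, interleukin-1 beta, had 1 UMI in the FACS cells, 5 in the neonatal bead cells and 544 at 3 DPI, the last in 61 cells. Il1rn, which blocks interleukin-1 signalling, had no UMI in either neonatal library and 90 at 3 DPI. Tnf had 44.96 (19.4 to 88.6) CPM in the FACS cells and 234 (189 to 286) at 3 DPI. Between cells with C1q UMIs only 2 of these genes could be tested, and Il1b had 1 UMI in the FACS cells against 94 at 3 DPI.

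Chemokines went in both directions. Of 12 tested, 2 were at least 2-fold higher in the FACS cells and 8 lower, and between cells with C1q UMIs 2 of 11 were higher and 6 lower. The higher ones of this list were Pf4 and Ccl12. The list does not hold Ccl24, which was counted with the resident genes above. Ccl12, a ligand of CCR2, had 809 (683 to 953) CPM in 38 of 75 FACS cells, 72.8 (8.82 to 263) in the neonatal bead cells and 41.9 (24.4 to 67.01) at 3 DPI. Cxcl2, a neutrophil attractant, had 124 (77.5 to 187), 182 (59.1 to 425) and 2885 (2723 to 3055) CPM. Ccl6 had 169 (114 to 241), 364 (175 to 669.8) and 2122 (1983 to 2269) CPM. Ccl2 and Ccl7, both monocyte attractants, were within 2-fold, with 326 and 214 CPM in the FACS cells against 519 and 244 at 3 DPI. Ccl5, which is also made by T and NK cells, had 1 UMI in the FACS cells and 155 at 3 DPI, of which 2 lay in cells with C1q UMIs. Among 7 chemokine receptors, 2 were higher in the FACS cells, Cx3cr1 and Ccr1, and 3 lower, Ccr2 and Cxcr4 among them, and C5ar1 and C3ar1 were within 2-fold. Ccr1, a receptor for CCL3 and CCL9, was 3.02-fold higher (2.24 to 4.08) in the FACS cells. Cxcr4, the receptor for CXCL12, was 10.7-fold lower (4.46 to 33.5).

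**Figure D3:**
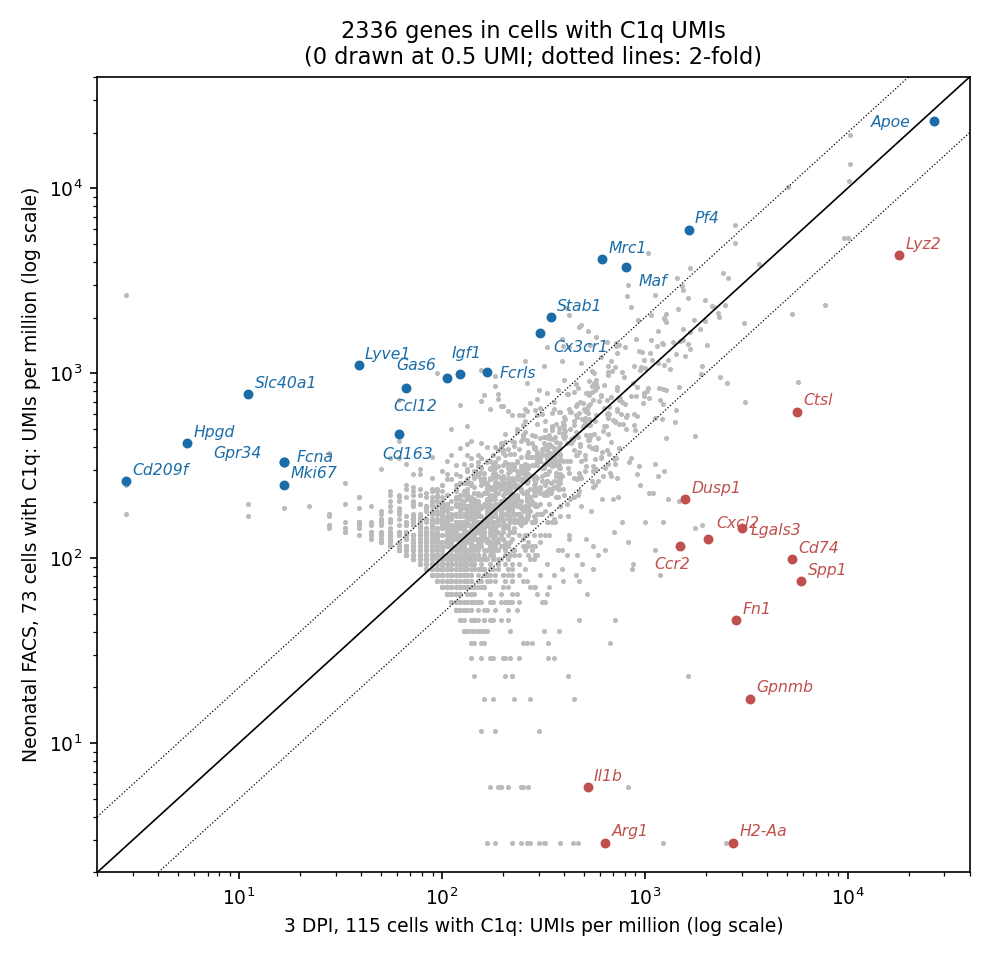
CPM of 2336 genes (both axes log) in the 73 neonatal FACS cells and the 115 cells at 3 DPI that had C1q UMIs, with the line of equality and dotted lines at 2-fold. A count of 0 is drawn at 0.5 UMI. Blue names lie mostly above the line (Mrc1, Lyve1, Slc40a1, Gpr34), red names below it (Cd74, Spp1, Gpnmb, Arg1, H2-Aa), and Apoe on it.

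Of 20 lipid and lysosome genes, 9 were at least 2-fold lower in the FACS cells, 10 were within 2-fold and 1, Cd36, was higher, with 9 lower and 1 higher also between cells with C1q UMIs. The list summed to 38735 CPM in the FACS cells and 53334 at 3 DPI. Gpnmb, a glycoprotein of lipid-laden macrophages, had 3 UMIs in the FACS cells, 0 in the neonatal bead cells and 829 at 3 DPI, or 16.9 (3.48 to 49.3) and 2041 (1904 to 2185) CPM in the FACS and 3 DPI cells. Spp1, osteopontin, had 78.7 (43.02 to 132), 36.4 (0.922 to 203) and 4668 (4460.1 to 4883) CPM in the 3 libraries. Lgals3, galectin-3, had 185 (128 to 260.5), 328 (149.9 to 622) and 2602 (2448 to 2764) CPM. The cathepsins Ctsl and Ctsd were 7.42-fold lower (6.102 to 9.102) and 2.28-fold lower (2.04 to 2.54) in the FACS cells, whereas Ctsb had 5227 and 6864 CPM, within 2-fold. Npc2, Lamp1 and Lipa, lysosomal genes of cholesterol transport, membrane and lipid breakdown, were within 2-fold. Cd36, a fatty acid and lipoprotein receptor, was 4.92-fold higher (4.02 to 6.05) in the FACS cells, and it is also a gene of capillary endothelium, with 2393 CPM in the Pecam1-positive cells of that library.

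Of 14 wound-associated genes, 10 were at least 2-fold lower in the FACS cells and 1, Hmox1, higher, with 8 of 13 lower and 1 higher between cells with C1q UMIs. Arg1, arginase 1, had no UMI in either neonatal library and 285 at 3 DPI in 67 cells, at least 41.6-fold lower in the FACS cells. Mmp12, a macrophage elastase, had no UMI in either neonatal library and 142 at 3 DPI. S100a4 and S100a6 were 12.02-fold lower (7.53 to 20.5) and 11.997-fold lower (8.39 to 17.8). Vim and Lgals1 were within 2-fold. Apoc2, an activator of lipoprotein lipase, had 0 UMIs in the FACS cells, 1 in the neonatal bead cells and 141 at 3 DPI.

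Several of the genes lowest in the neonatal cells relative to 3 DPI were as abundant in other cells of the injured nerve. At 3 DPI, Pdgfra-positive cells had 4579 CPM of Spp1, 4723 of the matrix protein fibronectin, Fn1, 23472 of Apod, 1572 of Mgp and 5978 of S100a6, against 4668, 3065, 2775, 345 and 2090.2 in the selected cells. In Pecam1-positive cells of that library, Spp1 had 505 CPM and Fn1 919. The part of RNA from other cells in the 3 DPI values of these genes was not tested. Fn1 is also in the monocyte list, where its 3065 CPM count toward the 6554 CPM summed in the selected cells at 3 DPI. By contrast Gpnmb had 51.8 CPM in Pdgfra-positive cells, Arg1 12.7, Cd74 43.5, Il1b 14.4, Ccr2 8.06 and Lyz2 193, each far below the selected cells.

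By the ranking over all genes, the 12 lowest in both neonatal libraries relative to 3 DPI were Spp1, Fn1, Apod, Gpnmb, Cxcl2, Lyz1, Thbs1, Apoc2, Mgp, Hilpda, Lgals3 and Tgm2. Among the 12 highest were Egfl8, Igf2, Tpx2, Mki67, Cenpe, Gpr183, Top2a, Gpr34, Ctsf and Ccnd1. Egfl8 is a Schwann cell gene, and Igf2, insulin-like growth factor 2, had 5946 CPM in Pdgfra-positive cells of the FACS library against 141 in the selected cells. Tpx2, Mki67, Cenpe, Top2a and Ccnd1 belong to the cell cycle. Gpr183, a receptor for oxysterols that guides immune cells, had 208 (146 to 287) CPM in the FACS cells, 255 (103 to 525) in the neonatal bead cells and 32.01 (17.04 to 54.7) at 3 DPI, with UMIs in 26, 4 and 13 cells. Ctsf, cathepsin F, had 146 (95.5 to 214) CPM in the FACS cells, from 26 UMIs, and 7.39 (1.52 to 21.6) at 3 DPI.

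Of 11 iron and heme genes tested, 6 were at least 2-fold higher in the FACS cells and none lower, with 6 of 10 between cells with C1q UMIs. The sum of the list was closer, 15647 CPM in the FACS cells and 13169 at 3 DPI. Slc40a1, ferroportin, the iron exporter, had UMIs in 38 of 75 FACS cells and 1 of 270 at 3 DPI, and its 2 UMIs there give a ratio of 152 (41.2 to 1267). No neonatal bead cell had a Slc40a1 UMI. Hmox1, heme oxygenase 1, and Blvrb, biliverdin reductase B, were 3.33-fold higher (2.64 to 4.196) and 7.86-fold higher (5.32 to 11.9). Hpgd, the enzyme that inactivates prostaglandins, placed in this list, had 410.3 (322 to 516) CPM in the FACS cells, 72.8 (8.82 to 263) in the neonatal bead cells and 22.2 (10.1 to 42.1) at 3 DPI. Fth1, ferritin heavy chain, was level, with 10645 and 11232 CPM.

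Receptors and bridging molecules of phagocytosis were mixed, with 4 of 14 at least 2-fold higher in the FACS cells and 3 lower, and 3 of 12 higher and 4 lower between cells with C1q UMIs. Gas6, the bridge between dying cells and the receptor MERTK, had 910.5 (776 to 1062) CPM in the FACS cells, none in the neonatal bead cells and 73.9 (49.8 to 105) at 3 DPI. Mertk and Axl themselves were within 2-fold, with 202 and 78.7 CPM in the FACS cells and 121 and 116 at 3 DPI. Stab1, Cd36 and Fcgr3, an activating Fc receptor at 849 against 421 CPM, were the others higher. Fcgr3 only just reached 2-fold, and with the median-of-ratios scaling 3 of the 14 were higher. Lrp1, Itgav and Fcgr4 were lower, at 309, 39.3 and 22.5 against 702, 123 and 116 CPM.

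Among 16 transcription factors tested, 2 were at least 2-fold higher in the FACS cells and 8 lower. Maf, a factor of mature resident macrophages, had 3619.5 (3345 to 3910.2) CPM in the FACS cells, 255 (103 to 525) in the neonatal bead cells and 659.8 (583 to 744) at 3 DPI. Mef2c was 4.29-fold higher (3.104 to 5.99) in the FACS cells. Spi1, PU.1, the general factor of myeloid cells, was within 2-fold at 332 and 254 CPM, as was Irf8 at 141 and 212. Cebpb, a factor of inflammatory macrophages, was 7.04-fold lower (4.95 to 10.3) and Cebpa 7.45-fold lower (3.504 to 18.9) in the FACS cells. The same counts, 2 higher and 8 lower, were found among 14 factors between cells with C1q UMIs.

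Of 18 general macrophage genes tested, 3 were at least 2-fold higher in the FACS cells and 7 lower, or 1 and 7 between cells with C1q UMIs, and the median log2 ratio over all selected cells was 0.06, which became -0.13 with the median-of-ratios scaling. C1qc and Adgre1, listed in the files as Emr1, which codes for the antigen F4/80, were higher, at 2563 and 596 CPM against 497 and 194. Fcgr3, which only just reached 2-fold, is counted here too, and with the median-of-ratios scaling 2 genes were higher. Cd14, Itgam and Mpeg1 were lower, at 208, 259 and 506 against 798, 709 and 1428. Cd68 and Laptm5 were within 2-fold.

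**Figure D4:**
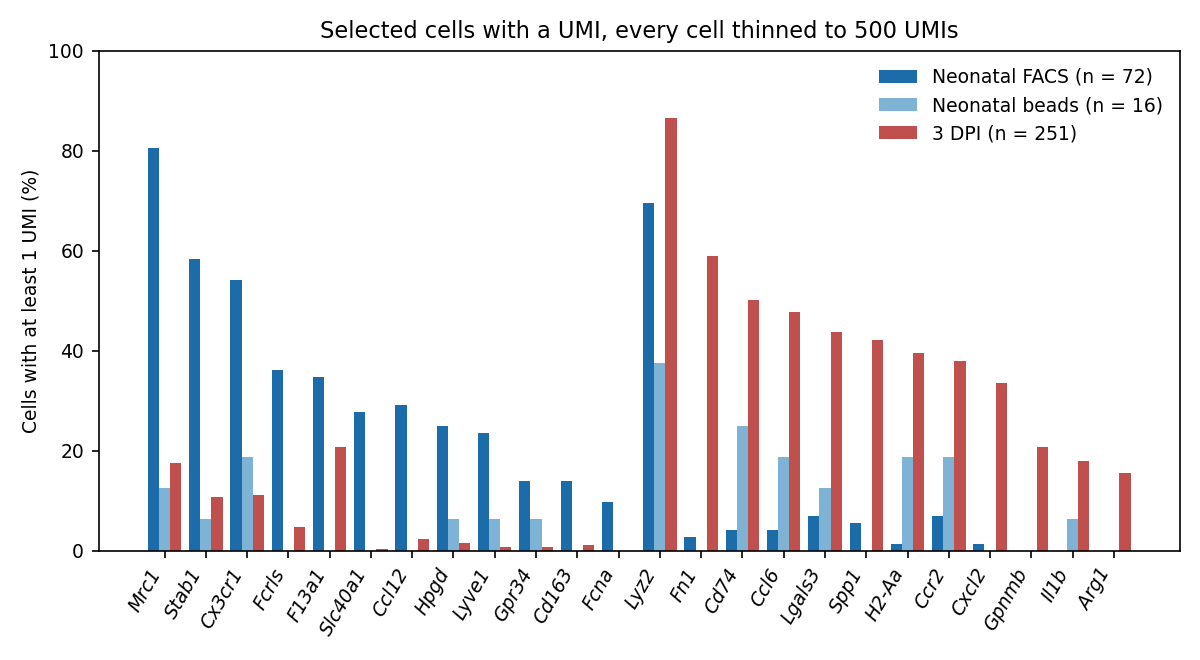
Share of selected cells (%) with at least 1 UMI of each gene after every cell was thinned at random to 500 UMIs, in the neonatal FACS (72 cells), neonatal bead (16 cells) and 3 DPI (251 cells) libraries. The 12 genes on the left are more often found in the FACS cells, Mrc1 in 80.6% against 17.5% at 3 DPI, and the 12 on the right at 3 DPI, Fn1 in 58.96% against 2.78%.

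Cell cycle genes were more abundant in the neonatal FACS cells than at 3 DPI. Of 8 tested, 7 were at least 2-fold higher in the FACS cells, with 6 of 7 between cells with C1q UMIs, and 5 in both neonatal libraries. In the neonatal bead cells, 46 of 76 UMIs of the list lay in 1 cell without C1q UMIs that had 1167 UMIs of S100a8 and S100a9, and the 7 cells with C1q UMIs had 9. Top2a, a topoisomerase, or Mki67, the Ki-67 antigen, had a UMI in 20 of 75 FACS cells (26.7%, 17.1 to 38.1), 2 of 19 neonatal bead cells (10.5%, 1.301 to 33.1) and 13 of 270 at 3 DPI (4.81%, 2.59 to 8.09). These cells are called dividing here. Thinned to 500 UMIs in a single random draw, 8 of 72 FACS cells (11.1%, 4.92 to 20.7) and 3 of 251 at 3 DPI (1.195%, 0.247 to 3.45) kept a UMI. In a separate draw for cells with C1q UMIs, 10 of 70 FACS cells and 4 of 108 at 3 DPI did. The intervals do not cover the variation between draws. Of the 20 dividing FACS cells, 19 had C1q UMIs. They had a median of 11.5 UMIs over the 20 cell cycle genes, from 2 to 73, against 1 in the other FACS cells, at median depths of 2682 and 2017 UMIs. The 13 cells at 3 DPI had a median of 2. In the neonatal bead library 1 of the 2 dividing cells had C1q UMIs and the other was the cell with the S100a8 and S100a9 UMIs. Free RNA of the 2 genes in cells that do not divide was not separated here, and 318 of 2011 other cells at 3 DPI (15.8%) had a UMI of either gene, against 233 of 2231 (10.4%) in the FACS library and 815 of 5717 (14.3%) in the neonatal bead library, above the share of its selected cells.

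Immediate early and heat shock genes, which dissociation can induce, were lower in the FACS cells. Of 17 tested, 14 were at least 2-fold lower and none higher, with 13 of 16 lower between cells with C1q UMIs, and their sum was 4709.9 CPM in the FACS cells, 13003 in the neonatal bead cells and 17512 at 3 DPI. Fos had 703 (585 to 837), 1675 (1227 to 2235) and 3314 (3139 to 3496) CPM. The same direction was seen in other cells of these libraries, where Fos had 242 CPM in Pdgfra-positive and 341 in Pecam1-positive cells of the FACS library against 1294 and 1620.2 at 3 DPI, and Dusp1 had 6.84 and 152 against 438 and 426. Age, injury, the drugs given with surgery, preparation and library cannot be told apart here. Interferon response genes were likewise lower in 5 of 7 tested, led by Ifitm3 with 89.9 (51.4 to 146) CPM against 1578 (1458 to 1705), but between cells with C1q UMIs in only 1 of 3, Ifitm3 itself. Of 9 glycolysis genes 4 were lower, and 1 of 7 between cells with C1q UMIs. Of 7 genes for receptors and ligands of the CSF and TGF-beta families 1 was lower in both comparisons, Csf2rb, at 61.8 against 212 CPM.

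Ligands that macrophages could offer to axons and other nerve cells were read from the 143 ligands the study lists for the injured nerve, a list the study chose in part on the 3 DPI cells, so that it is no independent evidence of direction. At least 2% of cells had a UMI for 53 of 143 in the FACS cells (2 cells) and for 49 at 3 DPI (6 cells), at unequal depths. Of 32 with at least 30 UMIs, 7 were at least 2-fold higher in the FACS cells and 16 lower, and between cells with C1q UMIs 5 of 22 were higher and 9 lower. Igf1, insulin-like growth factor 1, had 955 (817 to 1110.4) CPM in 46 of 75 FACS cells, no UMI in the neonatal bead cells and 133 (99.9 to 173) at 3 DPI. Igf1 had 1491 CPM in Pdgfra-positive and 32.2 in Sox10-positive cells of the FACS library. Bmp2, a bone morphogenetic protein, had 11 UMIs in 10 FACS cells and 5 at 3 DPI, under the minimum of 30. Osm, oncostatin M, had 1 UMI in the FACS cells and 64 at 3 DPI, and Vegfa 1 and 64. Tgfb1 was level at 118 and 126 CPM.

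The FACS cells varied among themselves, most visibly for the genes that accompany Lyve1. This split and its genes were chosen after the values were seen, and it is described without a test. Lyve1 had UMIs in 29 FACS cells, at a median depth of 2488 UMIs, and none in 46, at 1983. Besides Lyve1 itself and Gfod2, whose UMIs lay almost all in 1 cell, the genes ranked highest in the cells with Lyve1 among 1047 with at least 30 UMIs in the FACS cells were Fcna, Cd163, Clec10a, Ednrb and F13a1. Cd163 had 1011 CPM (794 to 1269) in the cells with Lyve1 and 66.8 (26.9 to 138) in those without. Fcna had 724 (542 to 947) and 38.2 (10.4 to 97.8), and Clec10a 710.4 (531 to 932) and 47.7 (15.5 to 111). Cd163 had UMIs in 12 of 29 and 3 of 46 cells and F13a1 in 25 and 20. Thinned to 500 UMIs, Cd163 was found in 25% of 28 cells with Lyve1 and 6.82% of 44 without, and F13a1 in 64.3% and 15.9%. The thinned shares were closer for Folr2, 17.9% and 11.4%, and for Cd209f, 7.14% and 4.55%. Ednrb, the endothelin B receptor, had 1954 and 277 CPM, and it is also a Schwann cell gene, at 2779 CPM in Sox10-positive cells. Of the same direction were Folr2 with 574 and 124 CPM, Ccl24 with 888 and 201, and Hmox1 with 1858 and 497.

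The cells without Lyve1 had more of other genes. Apobec1, a cytidine deaminase, had 506 CPM (379 to 662) without Lyve1 and 68.3 (22.2 to 159) with it. Clec12a, an inhibitory lectin receptor, had 258 and 54.6, the kinase Lyn 277 and 68.3, and Mpeg1, the pore-forming perforin-2, 707 and 219. All 35 Ccr2 UMIs lay in cells without Lyve1. Cx3cr1 and Gpr34 differed less than 2-fold, at 1257 and 219 CPM with Lyve1 and 1862 and 420.1 without. After thinning, Gpr34 went the other way, found in 17.9% of cells with Lyve1 and 11.4% without. Mrc1 was shared, at 4686 and 3523 CPM, with UMIs in 28 of 29 and 42 of 46 cells.

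**Figure D5:**
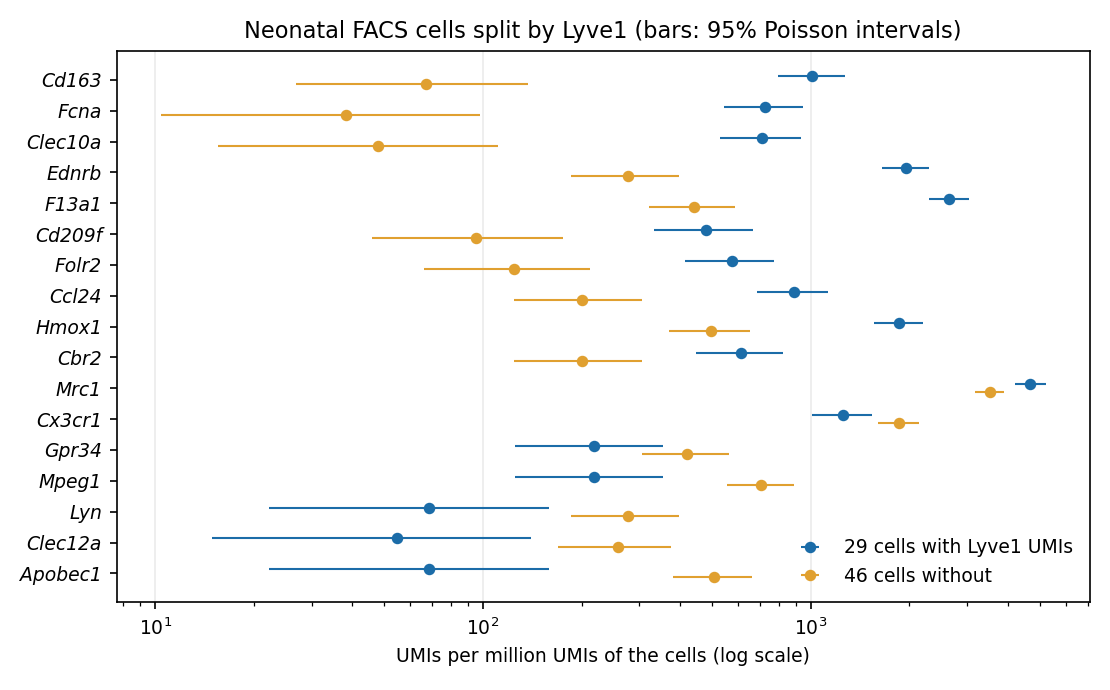
CPM (log axis) of 17 genes in the 29 neonatal FACS cells with a Lyve1 UMI and the 46 without, with 95% Poisson intervals. Cd163, Fcna and Clec10a lie over 10-fold higher in the cells with Lyve1, Mrc1 is shared, and Apobec1, Clec12a and Lyn lie higher in the cells without.

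RNA of Schwann cells was present in the neonatal FACS cells although none had a Sox10 UMI. Mbp, a protein of compact myelin, had UMIs in 56% of the 75 cells, with a median of 1 UMI and a maximum of 17, 714 CPM in all. The share was 50% in Pdgfra-positive and 55.5% in Pecam1-positive cells of that library, which should lack the gene, at 443 and 1360.03 CPM and median depths of 3203 and 2589 UMIs, so the signal in the selected cells is read as background. In Sox10-positive cells Mbp had 7564 CPM. In the neonatal bead library 21.1% of selected cells had Mbp UMIs and at 3 DPI 9.26%. In the opposite direction Dcn and Lum, genes of mesenchymal cells, had 955 and 468 CPM in the selected cells at 3 DPI and 50.6 and 39.3 in the FACS cells. Of 5 mesenchymal genes tested, 4 were at least 2-fold lower in the FACS cells. Mesenchymal RNA was still present there. Col1a1 had UMIs in 41.3% of the FACS cells, at 388 CPM, against 812 CPM at 3 DPI. The other marker lists were near 0 in the FACS cells, with 5 UMIs of 5 endothelial genes, 9 of 4 B cell genes, 3 of 10 T and NK cell genes, 0 of 7 dendritic cell genes, 4 of 8 neutrophil genes and 1 of 6 mast cell genes.

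The neonatal FACS and bead cells differed in makeup, preparation and age range at once, and these cannot be told apart. The 6 genes highest in the FACS cells relative to the bead cells were Gm10288, Dab2, Lyve1, Hmox1, Ms4a7 and Cd68, and the 6 lowest Tpsb2, Cma1, S100a8, S100a9, Cpa3 and Ngp. Dab2, an endocytic adaptor, had 2186 (1974 to 2415) CPM in the FACS cells and 72.8 (8.82 to 263) in the bead cells, and Cd68 731 (610.5 to 868) and 36.4 (0.922 to 203). The mast cell proteases Cma1 and Tpsb2 had 841 and 639 UMIs in 5 bead cells each, and 0 and 1 in the FACS cells. Ngp, a granule protein of immature neutrophils, had 249 UMIs in 2 bead cells, of which 232 lay in 1. With the 7 bead cells that had C1q UMIs, the MHC class II sum was 1210.4 CPM (393 to 2825) from 5 UMIs, and the microglia-associated sum 4115 (2397 to 6589), against 4762 (4442 to 5099) in the FACS cells with C1q UMIs.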

How the data were processed

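The 4 deposited tables held UMI counts per gene and cell barcode, which the authors made for a fixed number of barcodes per library following the Drop-seq Alignment Cookbook, without normalization. The submitters' processing notes name mm10, with no aligner version. Counts were read with Python 3.11.15, numpy 2.4.6, scipy 1.17.1 and pandas 2.3.3, and plots were drawn with matplotlib 3.10.9. The members and gene lists were chosen with earlier results of these data known.

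A gene was called at a 2-fold difference in CPM and at least 30 UMIs over the libraries compared. A count of 0 was set to 3 UMIs in the group with the lower level only. The planned form set it in either group, which called genes with no UMI in the neonatal bead cells as higher, and its counts are given with the alternatives. Named were the 12 genes highest and the 12 lowest in both neonatal libraries by the smaller of the 2 changes. Also named were the 10 with the most UMIs summed over both neonatal libraries, and genes of fixed lists. The 6 furthest apart between neonatal preparations in each direction were named too. Doublets were not removed in the main values, and leaving out the 5% of barcodes with the highest scrublet score in scanpy 1.11.5 was an alternative. Of the listed symbols, 2 were matched by older RefSeq names, and Vsig4, which was not in the tables, counted as 0. Some genes that the rule names are not reported here. The calling step was checked on simulated data. With 1 library per group no test across samples was made.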

Additional observations from a re-analysis of the deposited data

How the results depend on the processing

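No paired analysis was possible because each group is 1 library. Over 151 alternative values, 91 stayed within their counting interval or, for counts of genes, within 1.5 times, and 60 moved. In every setting run the resident level of the FACS cells stayed above that at 3 DPI. With at least 8 rule UMIs, the share was 0.122% in the neonatal beads and 5.48% at 3 DPI, and the levels in the bead and 3 DPI cells were 8959 and 16553 CPM for MHC class II, 75.9 and 2117 for resident, and 5467 and 6191 for monocyte genes. Thinning gave dividing shares of 11.1%, 0% and 1.195%. In cells with C1q UMIs of the FACS, bead and 3 DPI libraries, MHC class II had 145, 1210.4 and 12363 CPM and monocyte genes 331, 2179 and 5533, and resident genes 5084 in the beads and 2236 at 3 DPI. As a mean over cells, MHC class II had 746 (FACS) and 15842 (3 DPI), resident genes 2317 (beads) and 2178 (3 DPI), and monocyte genes 677, 2045 and 7111 in the 3 libraries. Without cells of mast, neutrophil, T or NK markers, MHC class II had 33797 in the beads and 15809.7 at 3 DPI, and resident genes 2369.9 and 2099.8. Without the highest scrublet scores the FACS cells had 157 for MHC class II and 11886 for resident genes, and without the 1 cell with H2-Aa 144 for MHC class II. With at least 500 genes per cell the beads had 776 for resident genes. Genes higher and lower in both neonatal libraries numbered 63 and 317 with median-of-ratios scaling. They were 11 and 110 at a minimum of 100 UMIs, 36 and 78 at 3-fold, and 99 and 31 in cells with C1q UMIs. The higher genes numbered 656 without a minimum and 180 with the floor in either group, and the lower genes 80 with 8 rule UMIs. For the FACS library alone, 406 genes were higher and 658 lower at the main settings. There were 97 and 192 at 100 UMIs, 2441 and 1673 without a minimum, and 166 and 401 at 3-fold. With 8 rule UMIs 369 were lower. Between FACS and 3 DPI cells with C1q UMIs, 294 genes were higher at the main settings. The higher and lower counts were 81 and 85 at 100 UMIs, 2104 and 1569 without a minimum, and 123 and 171 at 3-fold. The settings of UMI minimum, fold and cell choice change the number of genes or cells by construction, and the cause of the other changes was not tested. The depth of the bead cells limits their genes to those above 109 CPM.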

Other observations

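The 20 dividing FACS cells had less of most of the genes that accompany Lyve1 than the 55 others. Cd163 had 16.7 CPM (0.423 to 93.1) in the dividing cells and 677 (537 to 843) in the others. Fcna had 33.4 and 466, Ccl24 66.9 and 694, and Lyve1 itself 334 and 1439 CPM. Mrc1 had 3377 and 4318 CPM. Hmox1, which also accompanied Lyve1, was close to level, at 953 and 1109 CPM. Of the dividing cells, 7 had a Lyve1 UMI, as did 22 of the others. These genes were chosen after their values were seen, and the difference was not tested.

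Single cells held most of the UMIs of some genes in the FACS cells, among them 28 of 30 UMIs of Gfod2. Among 7 complement genes tested, 2 were at least 2-fold higher in the FACS cells, C1qc among them, and C3 and Itgam were lower. C3 had no UMI in the FACS cells and 75 at 3 DPI, where Pdgfra-positive cells had 833 CPM against 185 in the selected cells. Hemoglobin genes, a sign of red cells, had 12 UMIs in the FACS cells, 10 of them in 1 cell, and 440 at 3 DPI, 273 of them in 1 cell, or 67.4 and 1083 CPM.

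The 14 selected cells of the uninjured adult nerve had 2737 UMIs of the mast cell list, 369 of the MHC class II list and 40 of the resident list, and 1 of them had a C1q UMI.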
